A study of Mus musculus with 22 samples.

Results

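The 10 genes described here encode megakaryocyte and platelet proteins, and were taken by name out of the 47311 genes in the expression tables. The choice was made with earlier results of these data known. The genes are those of the granule and adhesive proteins Pf4, Ppbp, Vwf and Thbs1 and of the integrin chains Itga2b and Itgb3. The others are those of the chains Gp1ba, Gp1bb, Gp5 and Gp9 of the glycoprotein Ib-IX-V receptor. RNA came from FACS-sorted bone marrow cells of C57BL/6 mice carrying floxed Arid1a alleles (Arid1a f/f), which encode a subunit of the SWI/SNF chromatin remodeling complex. Knockout (KO) mice were Arid1a f/f;Mx1-Cre+, in which the Cre is switched on by interferon, and wild-type (WT) controls were littermates of matched sex without the Cre (Arid1a f/f;Mx1-Cre-). Mice of both genotypes received 5 injections of 300 µg poly(I:C), begun at 8 to 14 weeks of age, and the libraries are of cells taken 4 weeks after induction. Common myeloid progenitors (CMP), granulocyte-monocyte progenitors (GMP) and megakaryocyte-erythroid progenitors (MEP) came from the same 3 WT mice (300, 305 and 309) and 3 KO mice (301, 304 and 308), which gave 18 libraries. Long-term hematopoietic stem cells (LT-HSC) came from other animals, with 2 WT (S245 and S269) and 2 KO (S244 and S270) libraries, and were prepared with the SMART-Seq v4 low-input kit in place of the TruSeq kit.

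Megakaryocytes are the bone marrow cells that shed platelets, and they arise from stem cells through progenitors that also give rise to red cells and granulocytes. Platelets catch von Willebrand factor in injured vessel walls through the glycoprotein Ib-IX-V receptor, aggregate through the integrin of the Itga2b and Itgb3 chains, which binds fibrinogen, and release chemokines and adhesive proteins from alpha granules. The Itga2b chain, also called CD41, is made early in the lineage and in part of the stem and progenitor cells, while the Ib-IX-V chains are made later, as megakaryocytes mature.

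The genes lie on 5 chromosomes of the GRCm38 build, all as protein-coding genes. Pf4 was annotated at chr5:90772435-90773383 and Ppbp at chr5:90768518-90770063, in the chemokine cluster. Vwf was at chr6:125546774-125686679, Gp9 at chr6:87778072-87779768 and Thbs1 at chr2:118111876-118127133. Itga2b was at chr11:102453297-102470122, Itgb3 at chr11:104608000-104670476 and Gp1ba at chr11:70639122-70642036. Gp1bb was at chr16:18620317-18622403 and Gp5 at chr16:30307685-30310779. Exons of Gp1bb share 593 bases on the same strand with a transcript of Sept5, so that fragments of these genes were divided by estimation. The Gp1bb transcript that took 71.2% or more of the Gp1bb counts in every library did not overlap Sept5. Thbs1 shares 110 bases with the antisense lincRNA Gm29233, which reached at most 0.633 TPM (transcript abundance scaled for transcript length and library size).

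Promoter sequence from RefSeq (GRCm38.p6) was at hand for 7 of the 10 genes. The 150 bases before the transcription start are printed for 3 of them that went different ways in KO cells, since Pf4 was lower, and Gp1ba and Gp9 higher, in KO CMP. Capitals mark GGAAG, a core of ETS family sites, and AGATAA or TGATAA, forms of the GATA site, on either strand. The windows are chr5:90772285-90772434 (plus strand) for Pf4, chr11:70638972-70639121 (plus strand) for Gp1ba and chr6:87777920-87778069 (plus strand) for Gp9.
Pf4: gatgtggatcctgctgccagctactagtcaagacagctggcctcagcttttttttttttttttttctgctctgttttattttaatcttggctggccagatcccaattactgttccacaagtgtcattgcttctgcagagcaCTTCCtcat
Gp1ba: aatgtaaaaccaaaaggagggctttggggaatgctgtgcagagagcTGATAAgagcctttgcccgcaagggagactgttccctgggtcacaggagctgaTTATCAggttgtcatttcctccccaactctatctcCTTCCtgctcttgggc
Gp9: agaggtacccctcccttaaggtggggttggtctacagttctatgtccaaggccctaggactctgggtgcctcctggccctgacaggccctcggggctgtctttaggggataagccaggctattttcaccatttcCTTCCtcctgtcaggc

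In the whole windows, from 250 bases before to 50 bases after the start, GGAAG was found in 7 of the 7 genes, and in 71.4% of all 32851 windows of that length. AGATAA or TGATAA was found in 3 of the 7 (Pf4, Gp1ba and Gp5) and in 18.6% of all windows, and the Pf4 match lay after the start, outside the printed bases. TGTGGT, a core of RUNX sites, was found in 1 of the 7 (Gp9) and in 16.8% of all windows. In these windows Pf4, lower in KO CMP, and Gp1ba, higher there, both held a searched GATA form. Itga2b, lower, and Gp9, higher, held none. Other forms of these sites were not searched, and a link of the letters to the direction in KO cells was not tested. The RefSeq start of Itga2b lies inside the gene span given above, so that its window is not all upstream of the annotated gene. No motif searched contains another.

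The libraries held 40804031 to 65930737 estimated counts on genes, and the median standard error of a log2 difference in genes at 1 TPM or more was 0.09 for CMP, 0.0884 for GMP and 0.082 for MEP, against 0.389 for LT-HSC. Differences in LT-HSC are therefore known with less precision, from 2 libraries a group. Arid1a was lower in KO than in WT, at a log2 difference of -0.22 (SE 0.058) for CMP, -0.40 (SE 0.108) for GMP, -0.14 (SE 0.0515) for MEP and -1.14 (SE 0.273) for LT-HSC, the last not called, and TPM values overlapped for CMP and MEP. These counts span the whole transcript and not the deleted exon, so they check the labels only in part. The paper reports that the floxed exon was fully deleted in CMP, GMP and MEP of KO mice. Markers of 3 of the populations were highest in the population they name, with the precursors compared among themselves. The summed granulocyte-monocyte list was 31600 to 47100 TPM in GMP against 28.3 to 63.7 in MEP, the erythroid list 4300 to 6450 TPM in MEP against 109 to 159 in GMP, and the stem cell list 636 to 1220 TPM in LT-HSC against 11.1 to 122 in the precursors. LT-HSC libraries also held lists of other cells, with 2570 to 3660 TPM of the erythroid list, against 957 to 1780 in CMP, 478 to 864 TPM of the macrophage list, against 162 to 264 in GMP, and 364 to 2340 TPM of mature neutrophil markers. The WT LT-HSC library S245 stood apart, with 27191 genes at 10 or more counts against 18504 to 22407 in the other LT-HSC libraries.

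Among WT precursors, CMP had the highest mean level of every gene, though the test did not separate CMP from MEP for Gp5 or from GMP for Ppbp. In WT CMP the mean levels ran from 555 TPM for Pf4 and 248 TPM for Itga2b, through 37.2 for Gp5, 33.4 for Gp9, 28.3 for Vwf, 21.8 for Itgb3, 18.3 for Gp1bb and 11.1 for Gp1ba, to 5.12 for Ppbp and 1.59 for Thbs1. Between neighbours in this order, the ranges of the 3 mice overlapped for Gp5 and Gp9, Gp9 and Vwf, Vwf and Itgb3, and Itgb3 and Gp1bb. The other neighbours did not overlap, and Ppbp and Thbs1 came closest, at 3.57 and 3.02 TPM.

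Of the 10 genes, 9 were lower in WT GMP than in WT CMP at an adjusted p under 0.1 (edgeR quasi-likelihood test, with the mouse as a block), in a comparison where 43.9% of genes passed and 24.0% were lower. The differences of those 9 genes ran from -3.42 for Gp5 to -1.03 for Thbs1 on the log2 scale, and Ppbp did not pass (log2 -0.95, SE 0.774). Without the mouse as a block Thbs1 no longer passed (adjusted p = 0.303). Against WT CMP, 9 of the 10 were lower in WT MEP, where 70.6% of genes passed and 37.1% were lower. The steepest were Pf4 (log2 -5.66, SE 0.385), Itgb3 (log2 -5.59, SE 0.188) and Gp1bb (log2 -5.29, SE 0.346). Gp1ba was lower by far less (log2 -0.54, SE 0.166, adjusted p = 0.0189, edgeR), and Gp5 did not pass (log2 -0.04, SE 0.199).

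The receptor chains thus did not share a single order over the populations. Gp5, with 28.9 ± 3.25 TPM (SD, n = 3), was the most abundant of the 10 in WT MEP, where its partner Gp1bb had 0.264 ± 0.172 TPM. In WT GMP the same genes had 3.12 ± 1.09 and 2.30 ± 0.875 TPM. Between WT GMP and WT MEP, 8 of the 10 genes passed, with 70.8% of all genes called. Gp1bb, Itga2b, Itgb3, Pf4, Ppbp and Thbs1 were higher in GMP and Gp1ba and Gp5 higher in MEP, while Gp9 (log2 -0.33, SE 0.185) and Vwf (log2 -0.05, SE 0.172) did not pass. Ppbp rested on single mice here, since it no longer passed without WT mouse 300 (adjusted p = 0.22) or WT mouse 309 (adjusted p = 0.154).

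**Figure D1:**
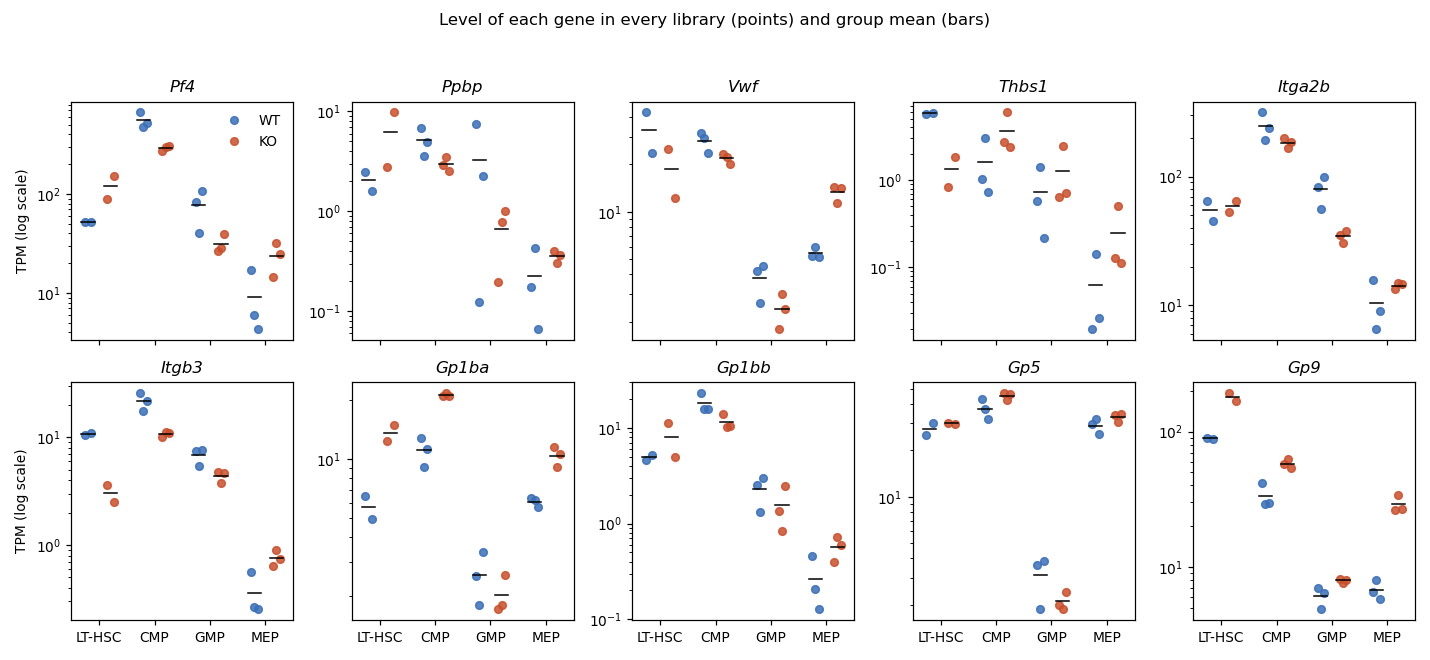
TPM (log scale) of each of the 10 genes in every library of WT and KO cells, by population, with black bars at the group means. The KO points of Gp9 lie above the WT points in all 4 populations, whereas those of Pf4 lie below the WT points in CMP and GMP above them in LT-HSC and, with overlap, higher on average in MEP.

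In CMP the genes divided by genotype. Most of those encoding granule proteins and integrin chains were lower, with Pf4 down from 555 ± 102 to 293 ± 16.7 TPM (SD, n = 3 each) and Itgb3 from 21.8 ± 4.15 to 10.8 ± 0.641 TPM. The receptor chains Gp1ba and Gp9 were higher, from 11.1 ± 1.86 to 21.4 ± 0.409 TPM and from 33.4 ± 7.01 to 57.8 ± 4.44 TPM. By the test, 8 of the 10 genes passed an adjusted p of 0.1, 2 higher and 6 lower, among 17214 genes of which 23.4% passed, 10.6% higher and 12.8% lower. The KO and WT libraries did not overlap in 7 of the 10 genes, against 31.8% of the 20754 genes at a mean of 0.1 TPM or more. The median difference of the 10 genes was -0.493 on the log2 scale and that of all genes tested -0.00268. On the TPM scale (limma, log2(TPM + 0.5)), which is not corrected for composition, 2228 genes were higher and 1030 lower, and 5 of the 10 were called, 2 higher and 3 lower. In these bulk samples, fewer cells that make a transcript and less of it per cell cannot be told apart.

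Pf4, the chemokine platelet factor 4, had 669, 473 and 524 TPM in WT mice 300, 305 and 309, and 274, 298 and 306 TPM in KO mice 301, 304 and 308. All 3 KO libraries lay below all 3 WT libraries, a log2 difference of -1.02 (SE 0.109, adjusted p = 0.000417, edgeR). Ppbp, the precursor of another platelet chemokine, had 6.88, 3.57 and 4.90 TPM in WT and 2.93, 3.50 and 2.52 TPM in KO cells. The groups nearly touched, and the difference was -0.87 (SE 0.26, adjusted p = 0.0507, edgeR) from 81 to 258 estimated counts a library. Vwf, the adhesive protein that tethers platelets, had 31.8, 29.3 and 23.8 TPM in WT and 23.4, 22.4 and 20.2 TPM in KO cells. Its KO libraries were lower without overlap, by little, at a difference of -0.41 (SE 0.134, adjusted p = 0.0677, edgeR). Neither of these last calls held in every fit. Without KO mouse 301 the adjusted p was 0.15 for Ppbp and 0.166 for Vwf, without KO mouse 308 it was 0.139 and 0.183, and without WT mouse 300 it was 0.158 and 0.152 (edgeR). Ppbp was also not called without WT mouse 309 (adjusted p = 0.112).

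Thbs1, the adhesive protein thrombospondin, had 1.03, 3.02 and 0.739 TPM in WT and 2.73, 5.95 and 2.39 TPM in KO CMP. The groups overlapped, and mice 305 and 304 were the highest of their genotypes, as they also were in GMP and MEP. The difference was 1.08 (SE 0.515, adjusted p = 0.207, edgeR). The study lists WT mouse 305 beside KO mouse 304, and with the pairs as a block the difference was 1.21 (SE 0.148, adjusted p = 0.000765, edgeR). Without WT mouse 305 it was 1.93 (adjusted p = 0.018), and without both mice it was 1.43 (adjusted p = 0.00359). In each pair the KO value was higher than the WT value.

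Itga2b and Itgb3 encode the 2 chains of the fibrinogen receptor, and both were lower in KO CMP. Itgb3 had 25.9, 17.6 and 21.8 TPM in WT and 10.1, 11.2 and 11.1 TPM in KO cells, with no overlap. That difference was -1.11 (SE 0.125, adjusted p = 0.000531, edgeR), the largest fall among the 10 genes in CMP. Itga2b had 315, 192 and 237 TPM in WT and 199, 166 and 185 TPM in KO cells, so the highest KO library exceeded the lowest WT library. Its difference was -0.57 (SE 0.149, adjusted p = 0.029, edgeR), and on the scale of log2(TPM + 0.5) it was not called (limma, -0.40, SE 0.179, adjusted p = 0.217).

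The 4 chains of the von Willebrand factor receptor went separate ways in KO CMP. Gp1ba, the chain that binds von Willebrand factor, had 12.9, 9.17 and 11.3 TPM in WT and 21.1, 21.8 and 21.1 TPM in KO cells. Its difference was 0.84 (SE 0.112, adjusted p = 0.00132, edgeR). Gp9 had 41.5, 29.1 and 29.6 TPM in WT and 57.7, 62.3 and 53.4 TPM in KO cells, a difference of 0.70 (SE 0.133, adjusted p = 0.00733, edgeR). All KO libraries lay above all WT libraries for both. Gp1bb, the chain joined to Gp1ba by disulfide bonds, was lower, with 23.2, 15.9 and 15.9 TPM in WT and 14.1, 10.3 and 10.5 TPM in KO cells (log2 -0.69, SE 0.136, adjusted p = 0.00862, edgeR). That call was lost with all 18 precursor libraries in 1 fit (SE 0.314, adjusted p = 0.167). Gp5 had 42.9, 36.8 and 31.9 TPM in WT and 46.9, 42.3 and 45.9 TPM in KO cells, with overlapping groups (log2 0.18, SE 0.0933, adjusted p = 0.259, edgeR). Without WT mouse 300 the Gp5 difference passed (0.27, adjusted p = 0.0742).

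Other lineage markers moved with the genotype in CMP as well. Of 12 erythroid markers, 11 were higher in KO, with a summed level of 957 to 1040 TPM in WT and 1530 to 1780 TPM in KO libraries. Granulocyte-monocyte markers were lower for 6 of 10 (4120 to 5180 TPM in WT and 1860 to 2840 TPM in KO), and basophil and mast cell markers for 6 of 7 (121 to 298 TPM in WT and 91.2 to 92.6 TPM in KO). No gene of these 3 lists was under 0.1 TPM throughout a group, and their part in the results was not tested. The 10 genes together summed to 809 to 1170 TPM in WT and 644 to 659 TPM in KO CMP.

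In GMP the fall of Pf4 and both integrin chains was seen again, and Gp9 was the sole gene of the 10 that was called higher. Pf4 went from 77.6 ± 34.2 to 31.6 ± 6.62 TPM and Itga2b from 79.4 ± 22.0 to 34.4 ± 3.88 TPM (SD, n = 3 each). The test called 4 of the 10 genes, 1 higher and 3 lower, while 33.9% of the 16383 genes tested passed, 17.5% higher and 16.3% lower. The share among the 10 genes in this fit, which left out the pairs, is thus near that of all genes. On the TPM scale (limma, log2(TPM + 0.5)) 1146 genes were higher and 3050 lower, and 3 of the 10 were called, all lower. KO and WT libraries did not overlap in 4 of the 10 genes, against 35.4% of all genes at a mean of 0.1 TPM or more.

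Itga2b had 83.3, 55.7 and 99.2 TPM in WT and 34.9, 30.3 and 38.0 TPM in KO GMP, a difference of -0.98 (SE 0.202, adjusted p = 0.00629, edgeR). Itgb3 had 7.55, 5.40 and 7.68 TPM in WT and 4.73, 3.76 and 4.71 TPM in KO cells, a difference of -0.50 (SE 0.146, adjusted p = 0.0324, edgeR). For both chains every KO library was below every WT library. Without WT mouse 309 Itgb3 was not called (adjusted p = 0.111). Pf4 had 83.6, 40.7 and 108 TPM in WT and 26.9, 28.8 and 39.2 TPM in KO cells, where the lowest WT library nearly met the highest KO library (log2 -1.18, SE 0.313, adjusted p = 0.0214, edgeR). Gp9 rose from 7.03, 4.86 and 6.44 TPM in WT to 8.15, 7.63 and 8.04 TPM in KO cells, by 0.53 (SE 0.18, adjusted p = 0.058, edgeR). That rise was small and hung on each of 5 mice, since the adjusted p was 0.118 without 301, 0.101 without 304, 0.122 without 308, 0.128 without 305 and 0.107 without 309.

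The remaining 6 genes were not called in GMP. Ppbp varied most, with 7.47, 0.123 and 2.25 TPM in WT and 0.194, 0.782 and 1.01 TPM in KO cells, and 4 to 292 estimated counts (log2 -2.14, SE 1.01, adjusted p = 0.16, edgeR). Vwf had 4.22, 2.61 and 4.49 TPM in WT and 1.80, 2.99 and 2.42 TPM in KO cells (log2 -0.50, SE 0.263). Gp5 had 3.64, 1.87 and 3.85 TPM in WT and 1.99, 1.89 and 2.43 TPM in KO cells (log2 -0.42, SE 0.274). In each of these genes WT mouse 305 lay at the bottom of its group. Without it the differences of Ppbp (-2.72, adjusted p = 0.0174), Vwf (-0.71, adjusted p = 0.0783), Gp5 (-0.71, adjusted p = 0.0211) and Gp1bb (-0.99, adjusted p = 0.0445) all passed, as did Thbs1 in the other direction (1.75, adjusted p = 0.0915), and Vwf also passed without KO mouse 304 (-0.72, adjusted p = 0.0929). Thbs1 had 0.581, 1.40 and 0.219 TPM in WT and 0.642, 2.48 and 0.714 TPM in KO GMP (log2 0.92, SE 0.653), and with the pairs as a block it passed (log2 0.95, SE 0.26, adjusted p = 0.0282, edgeR).

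Gp1ba had 2.55, 1.81 and 3.37 TPM in WT and 1.72, 1.82 and 2.56 TPM in KO GMP (log2 -0.20, SE 0.261). No rise of the kind measured in CMP and MEP was called there, and without WT mouse 309 the sign of this uncalled difference changed (0.04). Gp1bb had 2.55, 1.33 and 3.02 TPM in WT and 1.35, 0.845 and 2.48 TPM in KO cells (log2 -0.66, SE 0.377), and passed with the pairs as a block (log2 -0.63, SE 0.199, adjusted p = 0.0481, edgeR). Sept5, the gene that shares exon bases with Gp1bb, stood at 1.86 ± 0.15 TPM in WT and 16.7 ± 4.72 TPM in KO GMP (SD, n = 3 each), and its part in the Gp1bb estimate was not tested. In the other populations Sept5 stayed at 1.60 TPM or less. Basophil and mast cell markers were lower for 6 of 7 in KO GMP, with summed levels of 999 to 1480 TPM in WT and 313 to 378 TPM in KO libraries. Stem cell markers were lower for 5 of 7 (14.8 to 20.3 and 11.1 to 12.1 TPM) and endothelial markers for 3 of 3 tested (3.33 to 3.93 and 0.472 to 0.903 TPM, with Cdh5 and Stab2 under 0.1 TPM throughout). Granulocyte-monocyte markers were higher for 6 and lower for 3 of 10 (31600 to 37000 and 41800 to 47100 TPM). The part of these lists was not tested.

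In MEP every gene of the 10 that was called was higher in KO. Vwf rose from 5.43 ± 0.432 to 13.2 ± 1.71 TPM and Gp9 from 6.76 ± 1.08 to 29.1 ± 4.43 TPM (SD, n = 3 each). Of the 6 genes called lower in KO CMP, Pf4, Itgb3 and Vwf were called higher here, and Itga2b, Gp1bb and Ppbp were not called. By the test, 6 of the 10 genes were higher and 0 lower (edgeR), with 29.4% of 15777 genes called, 14% higher and 15.4% lower, and no gene of the 10 was lower at an unadjusted p under 0.05. DESeq2 called 6 higher and 0 lower, with 29% of all genes called, and limma on log2(TPM + 0.5) called 3 higher and 0 lower, with 15.3% called. The median difference was 1.04 for the 10 genes and -0.00201 for all genes. KO and WT libraries did not overlap in 4 of the 10, against 30.2% of all genes at a mean of 0.1 TPM or more.

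Vwf had 5.23, 5.93 and 5.13 TPM in WT and 14.4, 11.3 and 14.1 TPM in KO MEP, with every KO library well above every WT library. The difference was 1.53 (SE 0.106, adjusted p = 6.68e-05, edgeR). Pf4 had 17.0, 6.01 and 4.36 TPM in WT and 14.4, 32.0 and 24.9 TPM in KO cells (log2 1.33, SE 0.453, adjusted p = 0.0727, edgeR). WT mouse 300 lay inside the range of the KO group. The Pf4 call was lost without KO mouse 304 (adjusted p = 0.208), KO mouse 308 (0.147), WT mouse 305 (0.132) or WT mouse 309 (0.179), at differences of 1.02 to 1.31. Thbs1 was near the limit of detection, with 0.0199, 0.142 and 0.0266 TPM in WT and 0.128, 0.501 and 0.113 TPM in KO cells, from 5 to 94 estimated counts (log2 2.31, SE 0.692, adjusted p = 0.0467, edgeR). Without KO mouse 304 the Thbs1 difference was 1.47 (adjusted p = 0.164), without WT mouse 300 it was 1.92 (0.143) and without WT mouse 309 it was 2.09 (0.143). Ppbp stayed between 0.0668 and 0.431 TPM in all 6 libraries, and its difference of 0.66 (SE 0.574) was not called.

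Itgb3 was scarce in MEP, with 0.558, 0.267 and 0.253 TPM in WT and 0.644, 0.902 and 0.735 TPM in KO cells, though without overlap (log2 1.03, SE 0.317, adjusted p = 0.051, edgeR). Its call was lost without KO mouse 304 (adjusted p = 0.152), KO mouse 308 (0.11) or WT mouse 309 (0.146). Itga2b had 15.7, 6.59 and 9.10 TPM in WT and 13.3, 14.8 and 14.7 TPM in KO cells, where WT mouse 300 was the highest of all (log2 0.40, SE 0.317, adjusted p = 0.43, edgeR). Without that mouse Itga2b passed (0.92, adjusted p = 0.0138), and so did Gp1bb (1.72, adjusted p = 0.0411).

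Among the receptor chains, Gp9 made the largest step of the 10 genes in MEP that was free of overlap, with 6.55, 7.94 and 5.81 TPM in WT and 26.3, 34.2 and 26.8 TPM in KO cells (log2 2.08, SE 0.153, adjusted p = 8.06e-05, edgeR). Gp1ba had 6.34, 6.18 and 5.69 TPM in WT and 11.5, 9.16 and 10.6 TPM in KO cells (log2 0.75, SE 0.107, adjusted p = 0.00193, edgeR). Both kept their call without any one mouse. Gp1bb had 0.457, 0.209 and 0.127 TPM in WT and 0.400, 0.726 and 0.602 TPM in KO MEP, with 7 to 48 estimated counts (log2 1.05, SE 0.464, adjusted p = 0.154, edgeR). Gp5, already abundant in WT MEP, had 29.4, 31.8 and 25.4 TPM in WT and 33.8, 30.4 and 34.2 TPM in KO cells (log2 0.16, SE 0.0945). Of the 12 erythroid markers, 9 were higher and 1 lower in KO MEP, although their summed level was 5330 to 6450 TPM in WT and 4300 to 4710 TPM in KO libraries. The summed stem cell list, with Fgd5 under 0.1 TPM in every KO library, was 68.2 to 71.0 TPM in WT and 111 to 122 TPM in KO MEP. The part of these markers was not tested.

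**Figure D2:**
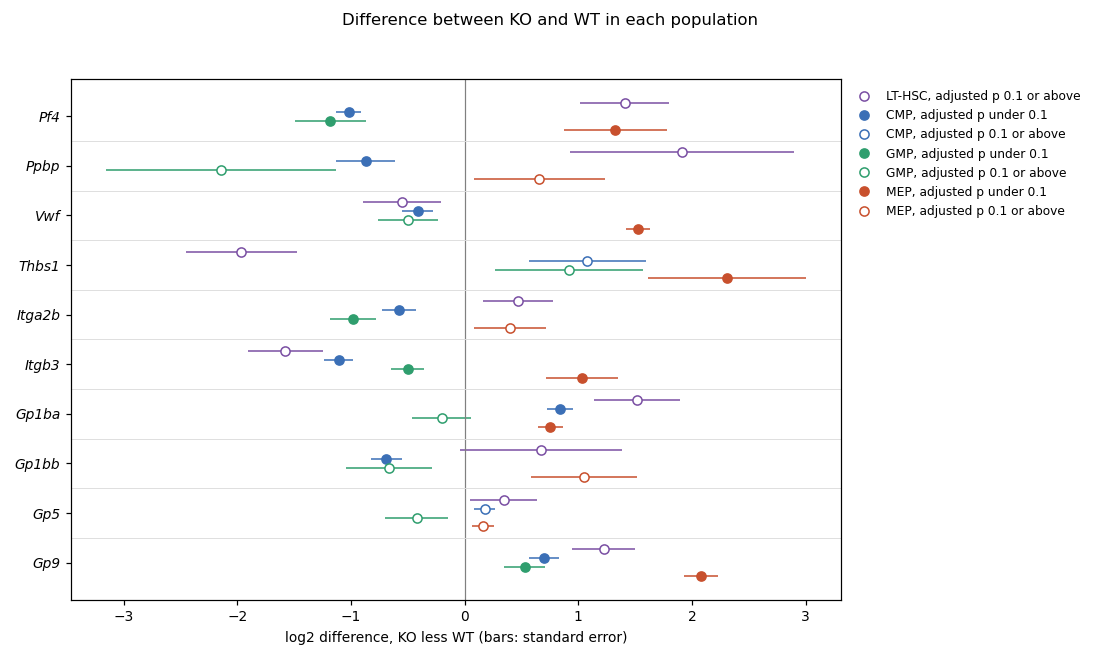
Log2 difference between KO and WT for each of the 10 genes in the 4 populations, with bars of 1 standard error; filled points passed an adjusted p of 0.1 (edgeR). Pf4 and Itgb3 lie below 0 in CMP and GMP and above it in MEP, at 1.33 and 1.03, and Gp9 lies above 0 throughout.

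In LT-HSC the levels of several of these genes were far apart between the genotypes, but with 2 libraries a group 0 of the 10 genes passed an adjusted p of 0.1 with edgeR. Of 22733 genes tested there, 0.0792% passed. Of the 10 genes, 5 had an unadjusted p under 0.05, against 5.19% of all genes. DESeq2 called 5 (3 higher and 2 lower in KO) with 1.2% of all genes called, edgeR without a filter on low counts called the same number with 0.749% called, and limma on log2(TPM + 0.5) called 0. The median of all genes tested was -0.158, against 0.571 for the 10 genes, and KO and WT libraries did not overlap in 6 of the 10, as in 31.0% of the 32961 genes at a mean of 0.1 TPM or more.

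Pf4, Gp1ba and Gp9 had both KO values above both WT values in LT-HSC, though none passed the edgeR test. Pf4 had 52.8 and 51.8 TPM in WT libraries S245 and S269 and 89.0 and 152 TPM in KO libraries S244 and S270 (log2 1.41, SE 0.392, adjusted p = 0.605, edgeR, and 0.0916, DESeq2). Gp1ba had 6.48 and 4.98 TPM in WT and 12.4 and 14.9 TPM in KO cells (log2 1.52, SE 0.38, adjusted p = 0.473, edgeR, and 0.0217, DESeq2). Gp9 had 89.6 and 88.9 TPM in WT and 193 and 168 TPM in KO cells (log2 1.22, SE 0.277, adjusted p = 0.36, edgeR, and 0.0447, DESeq2). The WT values of Pf4 and Gp9 lay close together. Without WT library S245, the one that stood apart, the adjusted p was 0.0723 for Pf4, 0.0175 for Gp1ba and 0.0102 for Gp9, and without WT library S269 it was 0.00842, 0.0167 and 0.000175 (edgeR). In those fits the calls over all genes went from 18 to 567 and 2519. Without KO library S244 or without S270, 0 of the 10 genes were called, with 6 and 4 at an unadjusted p under 0.05, and the adjusted p reached 1.0 for each of these 3 genes.

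Itgb3 and Thbs1 had both KO values below both WT values, and did not pass the edgeR test either. Itgb3 had 10.5 and 10.9 TPM in WT and 3.59 and 2.53 TPM in KO cells (log2 -1.58, SE 0.329, adjusted p = 0.284, edgeR, and 0.0172, DESeq2). Thbs1 had 5.73 and 5.93 TPM in WT and 0.825 and 1.85 TPM in KO cells (log2 -1.96, SE 0.489, adjusted p = 0.462, edgeR, and 0.015, DESeq2). Their WT values lay close together too. Without WT library S245 the difference was -1.72 for Itgb3 and -2.12 for Thbs1 (edgeR). Without WT library S269 it was -1.42 and -1.82, and that of Vwf was -0.71. With any 1 library left out it ranged from -1.75 to -1.38 for Itgb3 and from -2.63 to -1.47 for Thbs1. These fits too keep a group of 1 library, and their calls depended on which library was left out.

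The remaining 5 genes spread more widely. Ppbp had 2.49 and 1.59 TPM in WT and 2.75 and 9.76 TPM in KO cells (log2 1.91, SE 0.985). Vwf, 42.9 and 23.6 TPM in WT and 25.0 and 12.3 TPM in KO cells, differed by -0.55 (SE 0.343). Gp1bb had 4.67 and 5.18 TPM in WT and 11.3 and 4.92 TPM in KO cells (log2 0.67, SE 0.713). Itga2b, at 65.2 and 45.5 TPM in WT and 53.2 and 64.4 TPM in KO cells (log2 0.47, SE 0.307), and Gp5, at 24.9 and 29.9 TPM in WT and 30.1 and 29.6 TPM in KO cells (log2 0.34, SE 0.296), had overlapping groups. The summed stem cell list was 908 to 1220 TPM in WT and 636 to 775 TPM in KO LT-HSC, with 0 of its 7 genes called by edgeR and 2 at an unadjusted p under 0.05. The endothelial list, whose cells also make von Willebrand factor, was 36.0 to 39.2 TPM in WT and 16 to 23.4 TPM in KO LT-HSC (Cdh5 under 0.1 TPM in both KO libraries), the lymphoid list 31.8 to 36.0 and 7.43 to 18.2 TPM, and the macrophage list 653 to 864 and 478 to 550 TPM. No gene of these lists was called by edgeR, with 1, 0 and 2 at an unadjusted p under 0.05, and the part of these lists was not tested.

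Whether the effect of Arid1a loss differed between populations was tested directly, as the difference of the KO effects. CMP and GMP are defined by surface CD34 and MEP by its absence. The paper reports less surface CD34 on KO CMP and GMP, and a higher frequency of MEP in KO marrow. Genotype thus also altered a marker that separates the compared populations, and its part in these differences was not tested. The 10 genes were chosen with earlier results of these data known. Their counts beside the share of all genes are therefore a description, and not independent of that choice. Between MEP and CMP the effect differed for 7 of the 10 genes, all toward higher values in MEP. That test called 12.3% of 19171 genes (5.32% higher). The differences were 2.35 for Pf4, 2.13 for Itgb3, 1.94 for Vwf, 1.75 for Gp1bb, 1.36 for Gp9, 1.12 for Thbs1 and 1.02 for Itga2b on the log2 scale. For Pf4, Itgb3 and Vwf this was a fall in CMP set against a rise in MEP, each called in its own population. As given above, the MEP calls of Pf4 and Itgb3 and the CMP call of Vwf were lost without some single mice. Gp9 rose in both and by more in MEP. Gp1ba did not differ detectably, since it rose in both populations (difference -0.11, SE 0.222). Without KO mouse 308 the count was 4, and the calls of Thbs1 (adjusted p = 0.137), Gp1bb (0.104) and Itga2b (0.104) were lost. Thbs1 was also not called without KO mouse 304 (0.235), WT mouse 300 (0.191) or WT mouse 305 (0.207), and Gp1bb not without KO mouse 304 (0.119). With all mice but without the mouse as a block, the count was 5.

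Between GMP and MEP, with the same MEP libraries as in the last comparison, 8 of the 10 genes differed, all toward lower values in GMP, in a test that called 24.9% of genes (12.8% lower). The differences ranged from -2.48 for Pf4 to -0.96 for Gp1ba, and Gp5 (-0.60, SE 0.262) and Ppbp (-2.47, SE 1.31) did not pass. Gp1bb was not called without KO mouse 304 (adjusted p = 0.143) or WT mouse 309 (0.135). Without the mouse as a block Thbs1 was not called (-1.40, SE 1.24, adjusted p = 0.512, edgeR). Between GMP and CMP, 2 of the 10 differed, while 19.7% of all genes did. The Gp1ba effect was lower in GMP than in CMP by 1.07 (-1.07, SE 0.237, adjusted p = 0.00724, edgeR), and the fall of Itgb3 was smaller in GMP (0.59, SE 0.197, adjusted p = 0.0646, edgeR). The Itgb3 difference was not called without KO mouse 301 (0.19), KO mouse 308 (0.133) or WT mouse 305 (0.102).

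**Figure D3:**
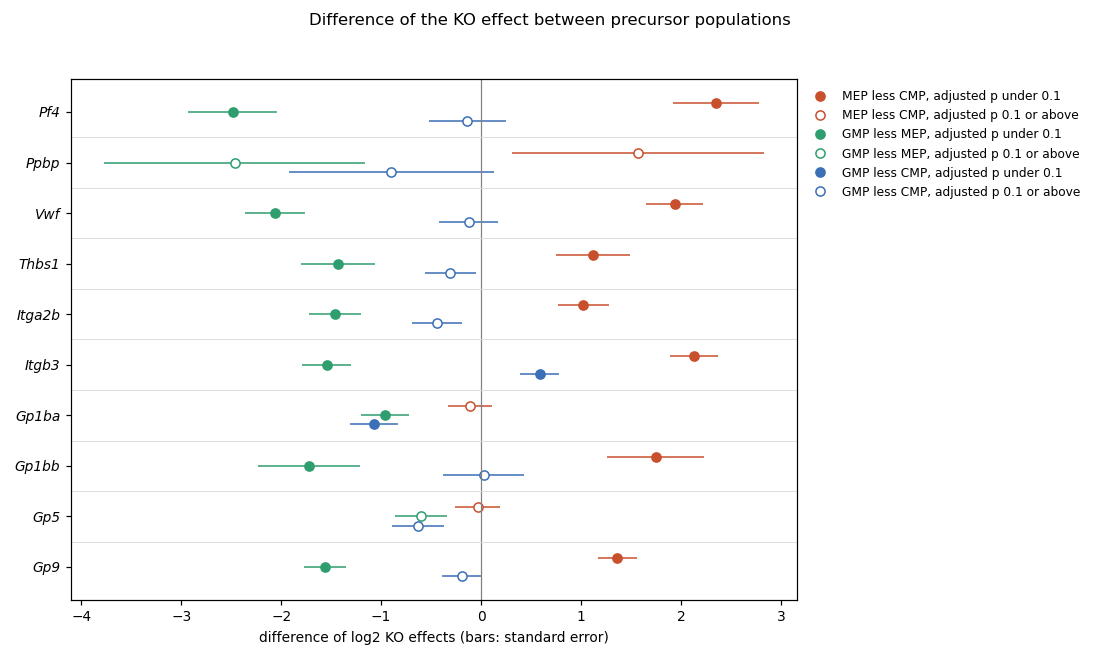
Difference of the log2 KO effect between pairs of precursor populations for each of the 10 genes, with bars of 1 standard error; filled points passed an adjusted p of 0.1 (edgeR, mouse as a block). MEP less CMP lies above 0 and GMP less MEP below it for Pf4, Vwf, Thbs1, Itga2b, Itgb3, Gp1bb and Gp9, while GMP less CMP was called for Itgb3 and Gp1ba alone.

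By the estimated log2 KO effect, LT-HSC stood nearest to MEP for Pf4 (1.41 and 1.33) and nearest to CMP for Itgb3 (-1.58 and -1.11). Neither of these LT-HSC effects was called by edgeR within LT-HSC. The Pf4 effect was higher in LT-HSC than in CMP by 2.42 (SE 0.311, adjusted p = 0.0124, edgeR), the 1 gene of the 10 called in a test that called 2.23% of genes. Against GMP, 4 of the 10 genes differed, with 4.03% of all genes called, and against MEP 3 of the 10, with 2.09% called. Against MEP these were Itgb3 (-2.62), Vwf (-2.08) and Thbs1 (-4.28), all lower in LT-HSC. The kit and the animals also differ between LT-HSC and the precursors, so that the kit and the population cannot be told apart. These edgeR fits shared 1 spread per gene between LT-HSC and the precursor population, which understates the spread of LT-HSC. The SE of the Pf4 difference from CMP (0.311) was below that of the Pf4 effect within LT-HSC (0.392). A fit with a separate spread for each population (limma voom with quality weights) called 0 of the 10 genes in each of the 3 comparisons, with 1, 2 and 4 of them at an unadjusted p under 0.05 against CMP, GMP and MEP. Leaving out single LT-HSC or precursor libraries gave counts of 1 to 6 against CMP, 1 to 5 against GMP and 2 to 5 against MEP. Against GMP, without KO library S270, Gp1ba (adjusted p = 0.18), Itga2b (0.19) and Itgb3 (0.266) were not called, and without any one of KO mice 301 and 304 and WT mice 300 and 309 the same 3 genes were lost, with Pf4 called alone. Without KO mouse 308 Itga2b (0.122) and Itgb3 (0.202) were lost, and without WT mouse 305 Itgb3 (0.147). The Thbs1 difference from MEP was not called without KO mouse 301 (0.12), KO mouse 304 (0.138), WT mouse 300 (0.163) or WT mouse 309 (0.189).

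Ratios of TPM within a library do not depend on how libraries are scaled to each other. Of 4 such ratios, 2 are given in full because they did not overlap between the genotypes, a choice made after their values were seen. Gp9 over Itga2b was 0.125 to 0.152 in WT and 0.288 to 0.375 in KO CMP, 0.0649 to 0.0872 and 0.212 to 0.252 in GMP, 0.416 to 1.20 and 1.82 to 2.31 in MEP, and 1.37 to 1.95 and 2.61 to 3.63 in LT-HSC. Every KO library lay above every WT library of its population. Itga2b over Itgb3, the ratio of the integrin chains, was 10.8 to 12.1 in WT and 14.8 to 19.8 in KO CMP and 4.19 to 6.20 and 14.8 to 25.4 in LT-HSC. In GMP it went the other way, with 10.3 to 12.9 in WT and 7.37 to 8.07 in KO libraries, and in MEP too, with 24.7 to 36.0 and 16.5 to 20.6. The other ratios overlapped in some populations, as Gp9 over Pf4 did in MEP (0.385 to 1.33 in WT and 1.07 to 1.83 in KO) and LT-HSC (1.70 to 1.71 and 1.11 to 2.17), and Gp9 over Gp1ba in CMP (2.63 to 3.22 and 2.53 to 2.85).

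A further 46 genes of megakaryocyte and platelet biology, in lists of regulators, surface proteins, granule and secretion genes, and cytoskeleton and enzyme genes, were read beside the 10. In CMP, 45 were tested, of which 7 were higher and 20 lower in KO, where 10.6% of all genes were higher and 12.8% lower, with a median of -0.237. Surface proteins were 2 higher and 7 lower of 14, granule and secretion genes 3 higher and 6 lower of 10, cytoskeleton and enzyme genes 1 higher and 5 lower of 11, and regulators 1 higher and 2 lower of 10. In GMP, 10 were higher and 22 lower of 44 (17.5% and 16.3% of all genes), with a median of -0.496. Regulators were 1 higher and 7 lower of 10 there, and surface proteins 1 higher and 7 lower of 13. Granule and secretion genes were 5 higher and 4 lower of 10, and cytoskeleton and enzyme genes 3 higher and 4 lower of 11. In MEP, 11 were higher and 6 lower of 41 (14% and 15.4% of all genes), with a median of 0.256. Surface proteins were 3 higher and 1 lower of 11 in MEP, and cytoskeleton and enzyme genes 3 higher and 1 lower of 10. Granule and secretion genes were 4 higher and 3 lower of 10 there, and regulators 1 higher and 1 lower of 10. In LT-HSC 0 of 46 were called by edgeR (0.0792% of all genes), and 9 had an unadjusted p under 0.05 (5.19% of all genes). More of these genes were lower than higher in CMP and GMP and more were higher than lower in MEP, by counts that were not compared by a test.

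The steps of single genes on these lists were at times larger than those of the 10. In CMP, F13a1, a clotting factor subunit also made by monocytes, fell from 116 ± 40.2 to 5.43 ± 1.28 TPM (SD, n = 3 each; log2 -4.52, SE 0.307, adjusted p = 5.2e-05, edgeR). The podoplanin receptor Clec1b (-2.07) and the adhesion molecule Esam (-1.69) fell too. The stem cell antigen Slamf1 (1.65) and the myosin light chain kinase Mylk (0.90) rose. The adenosine diphosphate receptor P2ry12 (4.63) went from 0.0992 ± 0.0145 TPM in WT to 3.46 ± 1.62 TPM in KO CMP. It thus reached the mean of 1 TPM asked of these genes only through KO cells. F13a1 also fell in GMP, from 118 ± 39.1 to 21.2 ± 2.12 TPM (log2 -2.32), as did the granule protein Mmrn1 (-1.66) and the adhesion receptor Selp (-1.35). Mylk (1.66), the cyclooxygenase Ptgs1 (1.48) and clotting factor F5 (1.30) rose in GMP. Of these GMP genes, Mylk was under 1 TPM in WT (0.805 ± 0.347 TPM, against 2.31 ± 0.912 in KO). Mmrn1 was under 1 TPM in KO GMP (0.483 ± 0.1 TPM, against 1.68 ± 0.727 in WT). In MEP, Slamf1 rose from 1.06 ± 0.164 to 5.51 ± 0.369 TPM (log2 2.34, SE 0.146, adjusted p = 3.98e-05, edgeR), with Ptgs1 (1.33) and the tetraspanin Cd9 (0.88). Ptgs1 was under 1 TPM in WT MEP (0.719 ± 0.429 TPM, against 1.84 ± 0.253 in KO). The adaptor Lat (-1.26), the granule proteoglycan Srgn (-0.53) and the growth factor Angpt1 (-0.47) fell there, the last with overlapping groups.

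**Figure D4:**
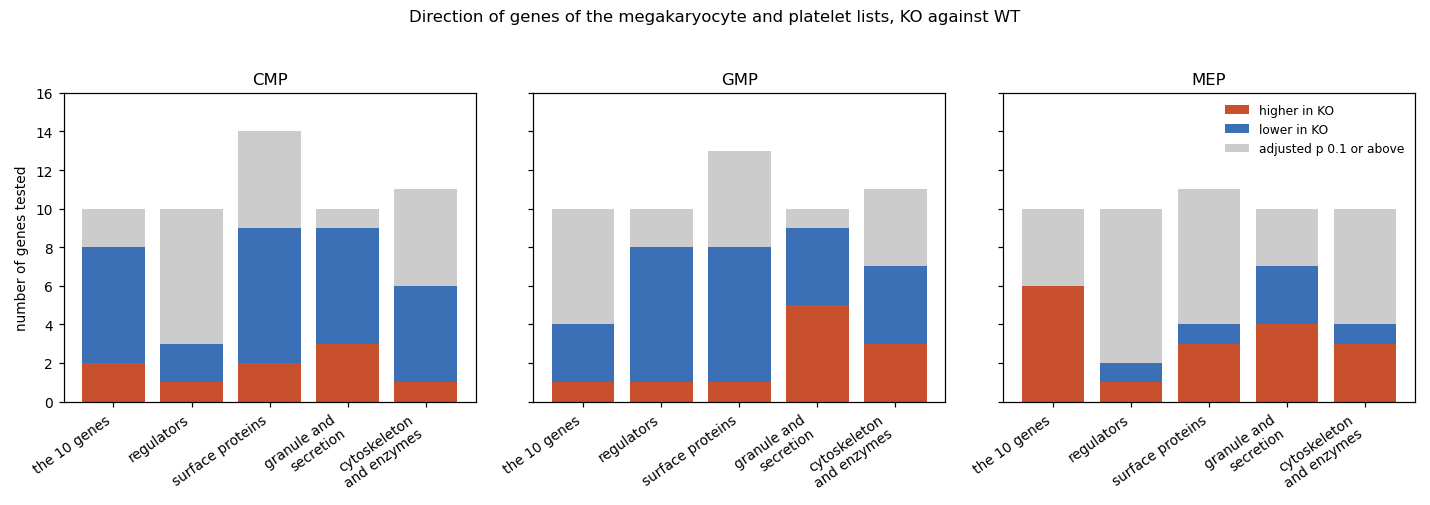
Number of tested genes of the 10 and of the 4 further lists that were higher in KO, lower in KO or not called at an adjusted p of 0.1 (edgeR), in CMP, GMP and MEP. In MEP none of the 10 genes was lower, whereas 6 of the 10 were lower in CMP.

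The factors whose motifs were searched for in the promoters had values of their own. Gata1, the GATA factor of the erythroid and megakaryocyte lineages, was 85.7 ± 9.38 TPM in WT and 115 ± 20.1 TPM in KO CMP (log2 0.35, adjusted p = 0.0814, edgeR), 14 ± 0.269 and 6.68 ± 1.22 TPM in GMP (log2 -0.90, adjusted p = 0.000546) and 224 ± 5.80 and 223 ± 7.76 TPM in MEP (log2 -0.02, adjusted p = 0.749). Fli1, an ETS factor of megakaryocytes, was lower in KO CMP (log2 -0.39, adjusted p = 0.0151, edgeR), higher in KO GMP (log2 0.18, adjusted p = 0.0506) and not called in MEP (log2 0.26, adjusted p = 0.554), where WT cells had 2.17 ± 0.828 TPM. Runx1 was lower in KO CMP (log2 -0.60, adjusted p = 0.00103, edgeR) and in KO GMP (log2 -0.64, adjusted p = 7.48e-05) and not called in MEP (log2 0.09, adjusted p = 0.541). None of the 3 was called in LT-HSC by edgeR (unadjusted p = 0.324 for Gata1, 0.363 for Fli1 and 0.295 for Runx1).

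Over the 18 precursor libraries, the genes of the 10 whose levels ran most closely together were the chains Itga2b and Itgb3 (Pearson r = 0.978 of log2(TPM + 1)), while Itgb3 and Gp5 had an r of -0.015. Of 13756 genes at a mean of 1 TPM or more, genes outside the 10 with a profile most similar to their standardized mean included Timp3 (r = 0.988), Treml1 (0.98), Gucy1a1 (0.974) and Adgrg1 (0.974). Treml1 is a platelet granule membrane protein. These values describe libraries that come from 6 mice and differ foremost by population, and carry no test.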

How the data were processed

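RNA-seq of 22 libraries was used, 18 of CMP, GMP and MEP and 4 of LT-HSC. Per the study's methods, the authors mapped 100 bp paired-end reads to Ensembl transcripts (mm10) with kallisto. The deposited estimated counts per transcript divide shared fragments between transcripts, the deposited TPM values are scaled for transcript length, and the deposited effective lengths are estimates for each library. Of 115088 transcripts, 114200 (99.2%) were paired with GENCODE vM21 genes (GRCm38), and at most 0.363% of counts were lost. Estimated counts and TPM were summed per gene, and counts rounded. The depth of 40804031 to 65930737 counts a library sets the precision given in the report, with 2 or 3 libraries a group.

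edgeR 4.0.16 (R 4.3.3) was run on 1 population at a time (genotype as the only term, TMM, filterByExpr, quasi-likelihood F-test), with Benjamini-Hochberg adjustment over all genes tested and a threshold of 0.1. Standard errors are the log2 difference over the square root of F. Differences of KO effects between precursors, and WT levels, had the mouse as a block, since each mouse gave all 3 populations. Whether WT and KO mice were paired was checked from the pairs the study lists. Deviations from the group means correlated at 0.372 to 0.602 within pairs in CMP and 0.486 to 0.588 in GMP. In MEP they correlated at 0.0787 to 0.574. Between mice not listed as pairs the values were -0.479 to 0.231 in CMP, -0.375 to -0.0524 in GMP and -0.558 to 0.408 in MEP. The pairs thus counted as such in CMP and GMP, but the main tests of KO against WT left them out. Fits with the pairs as a block were run as an alternative. The alternatives tried were size factors by median of ratios, counts without a filter, a mean of at least 1 TPM, length offsets, DESeq2 1.42.0, limma 3.58.1 on log2(TPM + 0.5) and log2(TPM + 0.1), limma voom with quality weights, 1 fit of 18 libraries, protein-coding transcripts only, the replicate block, no mouse block and each library left out. The fits were also run on simulated counts, drawn independently with 1 spread per gene in each fit, and the rates are not given here. These simulations did not cover the pairs of WT and KO mice or a larger spread in LT-HSC than in the precursors. Replicates are separate animals.

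The members and gene lists were chosen with earlier results of these data known. Beside the 10 genes, the text names the 3 largest called rises and falls among 46 listed genes at 1 TPM or more in each population, the 5 genes of most similar profile (1 of which is not reported here), Arid1a, and Gata1, Fli1 and Runx1 beside the motifs; Sept5, the ratios and the alternative without mice 305 and 304 were chosen after values were seen.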

Additional observations from a re-analysis of the deposited data

Results flagged for a closer look

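The results below are differences of the KO effect between populations that passed an adjusted p of 0.1 in the test of the difference itself (edgeR, adjusted over all genes). MEP less CMP: the Pf4 effect was higher in MEP by 2.35 (SE 0.431, adjusted p = 0.00337), that of Itgb3 by 2.13 (SE 0.244, adjusted p = 0.00012), that of Vwf by 1.94 (SE 0.288, adjusted p = 0.000803) and that of Gp1bb by 1.75 (SE 0.486, adjusted p = 0.0391). The Gp9 effect was higher by 1.36 (SE 0.194, adjusted p = 0.000583), that of Thbs1 by 1.12 (SE 0.369, adjusted p = 0.0831) and that of Itga2b by 1.02 (SE 0.256, adjusted p = 0.0229).

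GMP less MEP: the difference was -2.48 for Pf4 (SE 0.447, adjusted p = 0.0014), -2.06 for Vwf (SE 0.301, adjusted p = 0.000289), -1.72 for Gp1bb (SE 0.513, adjusted p = 0.031) and -1.56 for Gp9 (SE 0.208, adjusted p = 0.000138). It was -1.54 for Itgb3 (SE 0.247, adjusted p = 0.000587), -1.46 for Itga2b (SE 0.258, adjusted p = 0.00123), -1.43 for Thbs1 (SE 0.371, adjusted p = 0.0151) and -0.96 for Gp1ba (SE 0.24, adjusted p = 0.0121). GMP less CMP: it was -1.07 for Gp1ba (SE 0.237, adjusted p = 0.00724) and 0.59 for Itgb3 (SE 0.197, adjusted p = 0.0646). These comparisons share libraries and are not independent of each other, nor of the choice of the genes.

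LT-HSC less CMP: the difference was 2.42 for Pf4 (SE 0.311, adjusted p = 0.0124). LT-HSC less GMP: it was 2.59 for Pf4 (SE 0.528, adjusted p = 0.0311), 1.72 for Gp1ba (SE 0.427, adjusted p = 0.0676), 1.46 for Itga2b (SE 0.358, adjusted p = 0.065) and -1.08 for Itgb3 (SE 0.283, adjusted p = 0.0837). LT-HSC less MEP: it was -4.28 for Thbs1 (SE 0.953, adjusted p = 0.068), -2.62 for Itgb3 (SE 0.47, adjusted p = 0.0302) and -2.08 for Vwf (SE 0.325, adjusted p = 0.0169). The LT-HSC comparisons shared 1 spread per gene between populations, so their SEs understate the spread of LT-HSC. A fit with a separate spread for each population called 0 of the 10 genes in each of them. In the groups of 2 or 3 libraries no search for single outlying samples was made.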

How the results depend on the processing

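Of the 10 genes, the count called in CMP was 8, and it was 4 with all 18 precursor libraries in 1 fit and 5 with limma on log2(TPM + 0.5) or log2(TPM + 0.1). In MEP it was 6, and 3 with either limma fit. In LT-HSC it was 0, and 5 with DESeq2, 5 with DESeq2 and a length offset, 5 without a filter, and 2 with the replicate block. For GMP less CMP it was 2, and 1 without the mouse block. For LT-HSC less CMP it was 1, and 5 without a filter, and voom with weights gave 0 for LT-HSC less CMP, GMP or MEP in place of 1, 4 and 3. Without mice 305 and 304, an alternative chosen after seeing the data, the count in GMP was 7 in place of 4, and the MEP calls of Pf4 (0.87, adjusted p = 0.263) and Itgb3 (0.73, adjusted p = 0.192, edgeR) were lost.

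Leaving out 1 library at a time gave 6 to 9 genes in CMP, 2 to 8 in GMP (2 without WT mouse 309, 8 without WT mouse 305), 3 to 7 in MEP (3 without KO mouse 304 or WT mouse 309) and 0 to 6 in LT-HSC (6 without WT library S269, 5 without S245), where the fits keep a group of 1 library, assumed to vary like the other. It gave 1 to 3 for GMP less CMP, 7 to 10 for GMP less MEP, 4 to 7 for MEP less CMP, 1 to 6 for LT-HSC less CMP (6 without S269, 4 without S245, 3 without S244, 2 without S270 or without WT mouse 305), 1 to 5 for LT-HSC less GMP and 2 to 5 for LT-HSC less MEP (5 without S269). The Gp1ba difference in GMP ranged from -0.42 to 0.04 with its sign changed without WT mouse 309. With the replicate block, which pairs WT and KO mice, the count was 9 in CMP (3 higher and 6 lower). In GMP it was 6 with the block (2 higher and 4 lower), and in MEP the block changed no call. With 2 libraries a group, deviations in LT-HSC mirror each other, so that its 2 pairs gave a single correlation, 0.228. Under the block Thbs1 and Itgb3 were called in LT-HSC. With limma on log2(TPM + 0.5), the median of all genes in LT-HSC lay at -0.41 in place of -0.158.

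Over all genes, the LT-HSC count of 18 was 266 with DESeq2, 263 with DESeq2 and a length offset, 286 without a filter, 115 with the block, 1 with either limma fit, and 50 to 2519 with a library left out. In MEP 4638 became 2904 with limma on log2(TPM + 0.5), 2933 with log2(TPM + 0.1), and 3037 without KO mouse 301. For MEP less CMP 2353 became 1464 without WT mouse 309, and for WT GMP against CMP 7968 became 5253 without it. For LT-HSC less CMP 531 became 336 with a length offset, 0 with voom, 1720 without a filter and 32 to 6409 with a library left out. For LT-HSC less GMP 955 became 17 with voom, 1786 without a filter and 388 to 5728 with a library left out, and for LT-HSC less MEP 492 became 44, 1316 and 143 to 6475. Thbs1 and Ppbp in MEP rest on few counts, and 2 libraries a group limit LT-HSC. The cause of these shifts was not tested.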
